A study of Mus musculus with 4 samples.

Results

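The receptors and ligands of fibroblast growth factor (FGF) signalling were described in sorted Müller glial cells of the postnatal mouse retina. The set held 10 of the 24322 genes listed for each library: the 4 receptors *Fgfr1*, *Fgfr2*, *Fgfr3* and *Fgfr4*, the 4 secreted ligands *Fgf1*, *Fgf2*, *Fgf9* and *Fgf15*, and the 2 intracellular members of the family *Fgf12* and *Fgf13*. The genes were taken by name, and the set was proposed with their values in the comparison of control and *Rax* iCKO libraries already known. Their differences between the groups are therefore given as a description, without a test. Intervals on their reads cover counting error only and not the spread between mice.

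RNA-seq libraries were made from mTFP-positive retinal cells, sorted by FACS, of 4 mice, with 1 library per mouse. All mice carried *Rlbp1-CreERT2*, in which a tamoxifen-activated Cre recombinase is driven by a promoter fragment of the Müller glial gene *Rlbp1*, and the reporter *R26-CAG-LoxP-mTFP1*, which switches on a teal fluorescent protein after Cre recombination. The 2 control mice, numbers 7984 and 3911, were *Rax* flox/WT, and the 2 *Rax* iCKO mice, numbers 7983 and 3914, were *Rax* flox/flox, so that the controls too lost 1 *Rax* allele where Cre was active. Tamoxifen was given at P4 and retinas were taken at P14 in all of them, all are labelled 129S6, and the Cre line is also active in retinal pigment epithelial cells. *Rax*, a homeobox gene of retinal progenitors and Müller glial cells, was listed at 189 and 181 FPKM (fragments mapped to a gene, scaled to the length of its transcripts and to the mapped fragments of the library) in the control libraries and at 111 and 98.4 in the *Rax* iCKO libraries, a log2 fold change of -0.82 (SE 0.21, adjusted p = 1.0, limma).

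FGF ligands act through 4 tyrosine kinase receptors, which dimerize on binding a ligand together with heparan sulphate and pass the signal through a relay of RAS and a chain of protein kinases. *Fgf1*, *Fgf2* and *Fgf9* act near the cell that makes them, *Fgf15* belongs to the endocrine group, and *Fgf12* and *Fgf13* encode proteins that stay in the cell and bind voltage-gated sodium channels. In the retina FGF signalling is known for its part in setting up the neural retina, in photoreceptor survival and in the response of Müller glial cells to injury, and *Fgf15* is known as a gene of retinal progenitors.

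Among the 10 genes, *Fgfr3* and *Fgf15* differed most between the groups, in opposite directions. *Fgfr3* was at or near 0 in both control libraries and between 2.16 and 2.68 FPKM in both *Rax* iCKO libraries. *Fgf15* was between 1.12 and 1.81 FPKM in both control libraries and at or near 0 in both *Rax* iCKO libraries. The abundant members, *Fgf13*, *Fgf9* and *Fgfr1*, had overlapping groups.

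The *Fgfr3* promoter is shown because this receptor had the largest difference of the set. *Fgfr3* lies on chromosome 5 (GRCm38, mm10), and RefSeq gives it 2 start sites on the plus strand. Each sequence runs 5′ to 3′ from 250 bases before the start, in lower case, through the first 50 bases of the transcript, in capitals, so that the capitals are 5′ exon sequence.
*Fgfr3* start 1, chr5:33721474-33721773: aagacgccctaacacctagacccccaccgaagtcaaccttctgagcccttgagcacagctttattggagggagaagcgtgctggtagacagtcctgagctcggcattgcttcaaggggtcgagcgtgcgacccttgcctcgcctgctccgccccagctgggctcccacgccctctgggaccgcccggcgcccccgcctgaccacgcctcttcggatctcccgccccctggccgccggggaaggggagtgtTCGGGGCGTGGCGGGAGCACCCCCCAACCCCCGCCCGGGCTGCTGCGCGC
*Fgfr3* start 2, chr5:33722056-33722355: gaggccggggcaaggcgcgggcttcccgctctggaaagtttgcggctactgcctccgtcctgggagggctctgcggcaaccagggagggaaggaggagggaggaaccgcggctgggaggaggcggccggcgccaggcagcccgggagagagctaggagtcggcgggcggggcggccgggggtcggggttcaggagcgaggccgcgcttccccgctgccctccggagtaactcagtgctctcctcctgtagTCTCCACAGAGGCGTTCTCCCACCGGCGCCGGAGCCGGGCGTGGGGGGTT
Both windows were rich in G and C, at 69.7% and 73.0% against a median of 52.7% over all 32851 windows of this length in the RefSeq table. The letters TAATT, used as the Rax site in the study's reporter assay, were searched on both strands and were found in neither *Fgfr3* window. They were found in 8881 of the 32851 windows (27.0%), and in 1 of the 14 windows of the 7 members with an entry (*Fgf2*, *Fgf9*, *Fgf12*, *Fgf13*, *Fgfr2*, *Fgfr3* and *Fgfr4*), that of *Fgfr2*, 17 bases after its start. A match is a description of the letters and not of binding. The study's sites lay in a much longer stretch of the *Socs3* promoter, so absence from these short windows cannot be set against that assay.

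The libraries held an estimated 9270000 to 12720000 mapped reads, worked out from the steps in which low FPKM values move, with mouse 7984 the deepest at 1.349 times mouse 7983. Between 7870 and 8720 genes were listed at 0 in a library. Of 12 Müller glial markers, all had a mean of at least 1 FPKM, and their summed level was 17150 and 13280 FPKM in the control libraries and 11590 and 11730 in the *Rax* iCKO libraries, with 4 markers lower in both *Rax* iCKO libraries and none higher. Of all 17865 genes with a mean above 0, 14.5% were lower and 13.7% higher in this way. One of them was *Rlbp1*, the gene whose promoter drives the Cre, at 2616 and 2159 FPKM in control and 1292 and 1560 in *Rax* iCKO libraries. The sums of 10 bipolar cell markers were 5223 and 11830 against 7114 and 9921 FPKM, and those of 10 rod markers 1809 and 1742 against 1196 and 1013, with 9 of the 10 lower in both *Rax* iCKO libraries and none higher, so that transcripts of other retinal cell types were present in all 4 libraries. Fewer cells of a type and less RNA per cell cannot be told apart in such libraries. The X-inactivation RNA *Xist* reached 24.5 and 21.2 FPKM in the control libraries but only 0.0120 and 0.00605 in the *Rax* iCKO libraries. Transcripts of the Y-linked genes *Eif2s3y*, *Ddx3y*, *Uty* and *Kdm5d* were present in mouse 7983 alone, at 43.7, 12.4, 5.92 and 4.78 FPKM. *Xist* and genotype cannot be told apart in these mice.

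**Figure D1:**
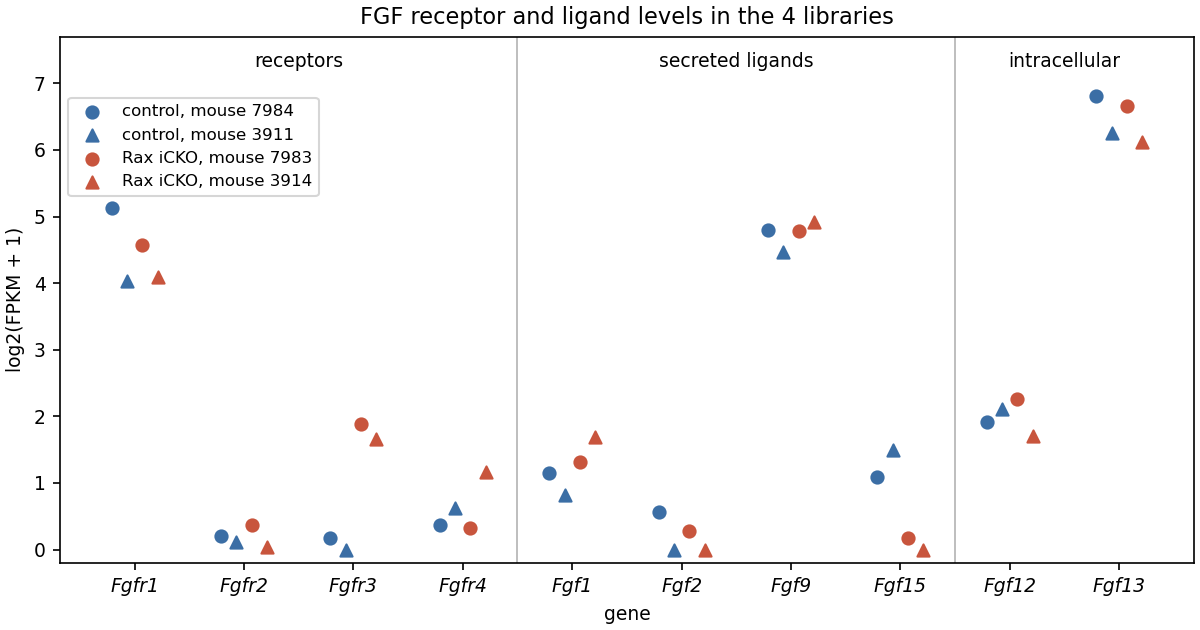
Level of each of the 10 genes in each library, as log2(FPKM + 1) on the vertical axis, with genes grouped by role on the horizontal axis. Blue marks the 2 control mice and red the 2 *Rax* iCKO mice, and circles mark mice 7983 and 7984 and triangles mice 3911 and 3914. The red points of *Fgfr3* lie above both blue points, those of *Fgf15* lie below both, and *Fgf13* is the highest of the set in every library.

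In order of mean level, *Fgf13* came first at 88.9 FPKM over the 4 libraries, followed by *Fgf9* at 25.9, *Fgfr1* at 22.1, *Fgf12* at 3.04, *Fgf1* at 1.42, *Fgfr3* at 1.24, *Fgf15* at 0.767, *Fgfr4* at 0.583, *Fgf2* at 0.173 and *Fgfr2* at 0.139. The ranges of *Fgf9* and *Fgfr1* overlapped, and so did those of each pair of neighbours from *Fgf1* downwards, whereas *Fgf13*, the pair of *Fgf9* and *Fgfr1*, and *Fgf12* were each apart from the next lower gene. *Fgf13* lay between the 93.2 and the 96.2 percentile of all genes in a library, *Fgf9* between 81.4 and 85.4, and *Fgfr1* between 77.6 and 87.2. Of the 10 members 6 had a mean of at least 1 FPKM and entered the fit across 12363 genes, and the 4 below it were *Fgfr2*, *Fgfr4*, *Fgf2* and *Fgf15*. The groups did not overlap for 3 members, with *Fgfr3* and *Fgf1* higher and *Fgf15* lower in both *Rax* iCKO libraries. Over all 17865 genes with a mean above 0, the same was so for 13.7% in the upward and 14.5% in the downward direction. Since the members were chosen on this contrast, nothing is read from these shares.

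*Fgfr1* encodes the receptor most widely used by neural and glial cells. It was listed at 34.1 and 15.4 FPKM in the control libraries of mice 7984 and 3911 and at 22.8 and 16.0 FPKM in the *Rax* iCKO libraries of mice 7983 and 3914. The groups overlapped, and both mice 7983 and 7984 lay above both mice 3911 and 3914. The mean was 24.7 ± 13.3 FPKM in control and 19.4 ± 4.77 in *Rax* iCKO libraries (SD, n = 2), and the log2 fold change was -0.25 (SE 0.40). Mouse 7983 minus mouse 7984 gave -0.56, and mouse 3914 minus mouse 3911 gave 0.06. With 1 mouse left out at a time the value ran from -0.80 to 0.30, the latter without mouse 7984. An antisense gene, *Gm16159*, overlaps *Fgfr1* exons and was at 2.35, 0.441, 2.17 and 1.32 FPKM in the 4 libraries in the same order.

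*Fgfr3* encodes the receptor whose activating mutations cause achondroplasia and which is found on astrocytes and Müller glial cells. Its level was 0.125 FPKM in mouse 7984 and listed at 0 in mouse 3911, and it was 2.68 FPKM in mouse 7983 and 2.16 FPKM in mouse 3914. Both *Rax* iCKO libraries lay above both controls by more than the spread within either group. With the longest of its 13 coding transcripts, the values correspond to about 6 reads over both control libraries and about 184 over both *Rax* iCKO libraries, a ratio of 36.0 after allowance for depth (95% interval 16.2 to 99.4, exact, counting error only). The size of this ratio rests on few control reads: it was 19.5 without mouse 3911, 30.1 without mouse 7983 and 37.2 without mouse 3914. Without mouse 7984 the remaining control library was at 0, and *Fgfr3* was at least 30.3-fold higher against a floor of 3 reads. In mouse 3911 a count of 0 allows up to 3 reads, or 0.0800 FPKM. On the log2(FPKM + 1) scale, which understates the change of low genes, the difference was 1.69 (SE 0.30). Mouse 7983 exceeded mouse 7984 by 1.71 and mouse 3914 exceeded mouse 3911 by 1.66, and leaving out 1 mouse at a time gave 1.58 to 1.79. Even in the *Rax* iCKO libraries the gene remained below *Fgfr1*, at 22.8 and 16.0 FPKM. An antisense gene, *G630022F23Rik*, overlaps *Fgfr3* exons and had no listed value.

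The 2 remaining receptors were low in all 4 libraries. *Fgfr2*, whose splice forms serve epithelium and mesenchyme, was at 0.152 and 0.0862 FPKM in control libraries, against 0.297 and 0.0230 FPKM in *Rax* iCKO libraries, values that rest on about 0.9 to 11.5 reads a library. The groups overlapped, with a difference of 0.04 (SE 0.14) on the log2(FPKM + 1) scale. *Fgfr4*, known from liver and muscle, was at 0.293 and 0.548 FPKM in control libraries, against 0.252 and 1.24 FPKM in *Rax* iCKO libraries. Its values were whole multiples of 1 read, at 11 and 15 reads in the control mice 7984 and 3911 and 7 and 34 reads in the *Rax* iCKO mice 7983 and 3914. After allowance for depth the ratio of summed reads was 1.85 (95% interval 1.11 to 3.15, counting error only). This ratio rests on mouse 3914, since without that mouse it was 0.628 and the log2 difference of 0.24 (SE 0.30) became -0.18.

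**Figure D2:**
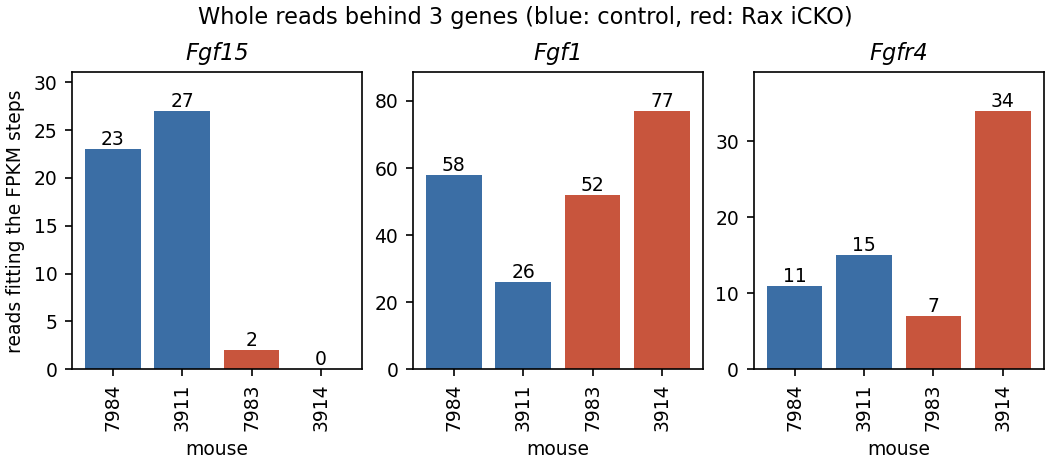
Reads that fit the FPKM steps of *Fgf15*, *Fgf1* and *Fgfr4*, as bars that start at 0, with 1 bar per mouse, control in blue and *Rax* iCKO in red, and a vertical scale of its own for each gene. *Fgf15* had 23 and 27 reads in the control mice and 2 and 0 in the *Rax* iCKO mice, whereas the bars of *Fgf1* and *Fgfr4* were highest in mouse 3914, at 77 and 34 reads.

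Of the secreted ligands, *Fgf9*, which binds the receptor forms made by *Fgfr3* among others, was the most abundant. Its level was 26.7 and 21.1 FPKM in control and 26.6 and 29.4 FPKM in *Rax* iCKO libraries, so that mouse 7983 lay between the 2 controls. The means were 23.9 ± 3.99 and 28.0 ± 1.96 FPKM (SD, n = 2), with a log2 fold change of 0.22 (SE 0.22) that ran from 0.06 to 0.39 with 1 mouse left out. *Fgf9* was thus measured at 21.1 FPKM or more in every library.

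*Fgf15*, the mouse counterpart of human FGF19, was at 1.12 and 1.81 FPKM in the control libraries, at 0.132 in mouse 7983 and listed at 0 in mouse 3914. Both controls lay above both *Rax* iCKO libraries. These values were whole multiples of 1 read, with 23 and 27 reads in control and 2 and 0 reads in *Rax* iCKO libraries, and the transcript length implied by the steps was 1809 bases, against 1810 in its longest annotated transcript. The ratio of *Rax* iCKO to control reads after allowance for depth was 0.0470 (95% interval 0.00553 to 0.179, counting error only), and 0.0366, 0.0590 and 0.0933 without mice 7984, 3911 and 3914. Without mouse 7983 it was at most 0.142, against a floor of 3 reads. In mouse 3914 a count of 0 allows up to 3 reads, against 27 measured in mouse 3911. The difference on the log2(FPKM + 1) scale was -1.20 (SE 0.20), from a fit without the filter on low genes. Mouse 7983 minus mouse 7984 gave -0.91 and mouse 3914 minus mouse 3911 gave -1.49, and with 1 mouse left out at a time the value ran from -1.40 to -1.0. Of 10 markers of retinal progenitors, 6 were lower and 1 higher in both *Rax* iCKO libraries (14.5% and 13.7% of all genes), with sums of 329 and 327 against 270 and 198 FPKM, and their part in the *Fgf15* difference was not tested. *Hes1* and *Hes5*, which Müller glial cells also use, made up most of these sums, and the cell division markers *Mki67* and *Top2a* were at most 0.0218 and 0.193 FPKM in any library. The antisense genes *Gm26793* and *Gm39119* overlap *Fgf15* exons and had no listed value.

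*Fgf1*, a ligand of all 4 receptors without a classical secretion signal, was at 1.23 and 0.755 FPKM in control libraries, against 1.48 and 2.23 FPKM in *Rax* iCKO libraries. Both *Rax* iCKO libraries lay above both controls, though mouse 7983 only slightly above mouse 7984. The steps of its values correspond to 58 and 26 reads in control and 52 and 77 reads in *Rax* iCKO libraries. After allowance for depth the ratio of reads was 1.80 (95% interval 1.36 to 2.40, counting error only). The implied length was 3916 bases against 3981 in its longest transcript. The mean was 0.991 ± 0.334 FPKM in control and 1.86 ± 0.525 in *Rax* iCKO libraries (SD, n = 2), with a log2 fold change of 0.52 (SE 0.32). Mouse 7983 exceeded mouse 7984 by 0.16, and mouse 3914 exceeded mouse 3911 by 0.88. *Fgf2*, the basic FGF, was at 0.477 FPKM in mouse 7984, at 0.215 in mouse 7983 and listed at 0 in mice 3911 and 3914. The 2 values above 0 are in the ratio of 3 reads to 1, which would imply a transcript of 694 bases, whereas with the longest annotated transcript of 5973 bases they correspond to about 35.0 and 11.7 reads. The reads behind *Fgf2* are therefore not settled, and the limit that a count of 0 allows, worked out with 694 bases, was 0.655 FPKM in mouse 3911 and 0.652 in mouse 3914. The groups overlapped. Its antisense neighbour *Nudt6*, named after its values were seen, was at 3.38 and 5.87 FPKM in control libraries, against 4.32 and 7.06 FPKM in *Rax* iCKO libraries.

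The intracellular members did not separate the groups. *Fgf13* was at 111 and 75.7 FPKM in control libraries, against 100.1 and 68.7 FPKM in *Rax* iCKO libraries. Mice 7983 and 7984 were the higher ones in both genotypes, by 0.54 on the log2 scale, whereas the genotypes differed by -0.15 (SE 0.30). The single differences were -0.15 for mice 7983 and 7984 and -0.14 for the other two mice, and without mouse 7984 the estimate was 0.13. *Fgf13* lies on the X chromosome, on which the libraries also differed in *Xist*. *Fgf12* was at 2.78 and 3.32 FPKM in control libraries, against 3.81 and 2.26 FPKM in *Rax* iCKO libraries, so that the *Rax* iCKO libraries lay on either side of the controls, with a log2 fold change of -0.03 (SE 0.31) and values from -0.31 to 0.25 with 1 mouse left out.

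**Figure D3:**
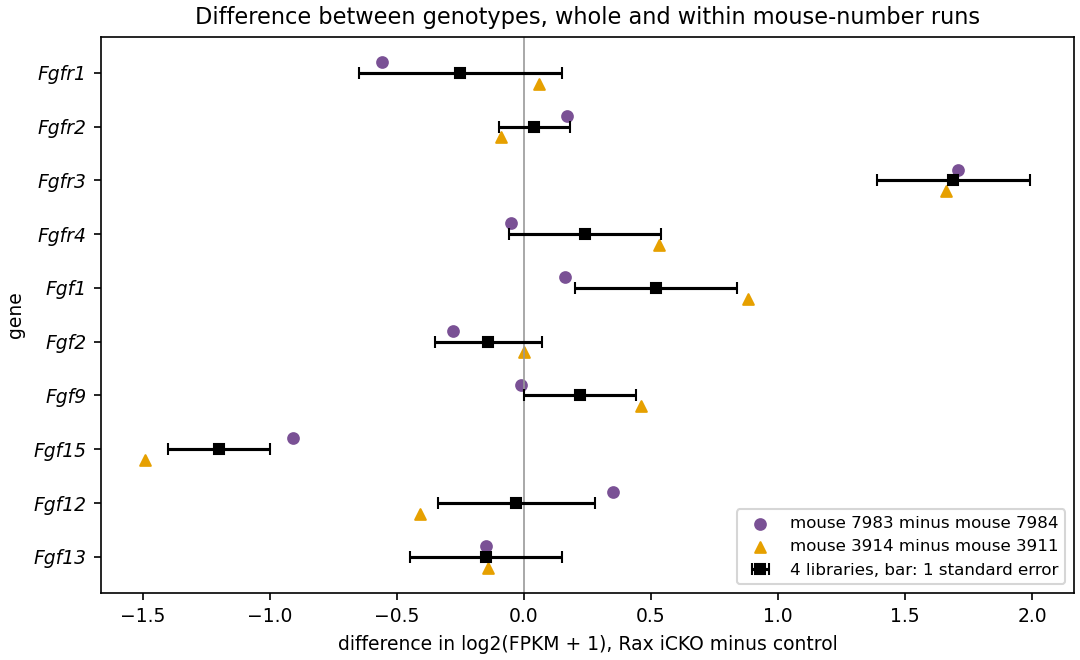
Difference of *Rax* iCKO minus control in log2(FPKM + 1) on the horizontal axis for each gene. Black squares with bars are the estimate over the 4 libraries with 1 standard error, circles mouse 7983 minus mouse 7984, and triangles mouse 3914 minus mouse 3911. Both single differences of *Fgfr3* lie near 1.7 and both of *Fgf15* below -0.9, whereas those of *Fgfr1*, *Fgfr2*, *Fgfr4*, *Fgf9* and *Fgf12* fall on both sides of 0.

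Genes beside *Fgfr3* and *Fgf15* were looked up and were chosen by position after the values of both members were known. *Letm1*, a mitochondrial ion exchanger gene 2.6 kb after *Fgfr3*, was at 29.0 and 27.8 FPKM in control libraries, against 33.7 and 39.8 FPKM in *Rax* iCKO libraries, higher in both but not past the test (log2 fold change 0.36, SE 0.21, adjusted p = 1.0, limma). *Tacc3*, a spindle gene 42.7 kb before it, had overlapping groups (log2 fold change 0.22, SE 0.28), as had *Tmem129*, 63.3 kb before it (0.05, SE 0.25). *Nelfa*, an elongation factor gene 160.8 kb after *Fgfr3*, was at 24.2 and 24.8 FPKM in control and 21.2 and 21.4 in *Rax* iCKO libraries, lower in both but not past the test (log2 fold change -0.19, SE 0.20, adjusted p = 1.0, limma). Next to *Fgf15*, *Fgf3* and *Fgf4* were listed at 0 in all 4 libraries. *Ccnd1*, the cyclin D1 gene 29.0 kb after *Fgf15*, was at 16.5 and 11.8 FPKM in control libraries, against 8.19 and 6.42 FPKM in *Rax* iCKO libraries, lower in both (log2 fold change -0.86, SE 0.27, unadjusted p = 0.0193, adjusted p = 1.0, limma), and *Tpcn2*, 285.6 kb after it, had overlapping groups (log2 fold change 0.05, SE 0.32).

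The 5 tested genes whose profile over the 4 libraries lay nearest to that of *Fgfr3* were *Npy*, *Gal*, *Bcan*, *Snora70* and *Adgrg1*, by the root mean square difference of centred log2(FPKM + 1) values. *Npy*, which encodes neuropeptide Y, was nearest at 0.158, with 128 and 91.3 FPKM in control and 398 and 277 FPKM in *Rax* iCKO libraries. *Gal*, which encodes the neuropeptide galanin, was at 10.3 and 10.2 against 29.8 and 19.0 FPKM (distance 0.311). *Bcan*, which encodes the matrix proteoglycan brevican, was at 9.47 and 4.95 against 24.8 and 33.3 FPKM (0.338). *Adgrg1*, an adhesion G protein-coupled receptor gene, rested on lower levels, at 1.17 and 1.35 against 4.13 and 3.04 FPKM (0.354), and *Snora70*, a short small nucleolar RNA, was at 12.1 and 16.7 against 32.6 and 33.3 FPKM (0.351).

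The remaining pathway was described from 5 lists of 81 genes, all of which were in the files. Of these 50 were tested, and none passed an adjusted p of 0.05 in limma in either direction, as 0.0243% of all genes tested did (3 genes). At an unadjusted p under 0.05, 1 of the 50 was higher and none lower, against 1.26% and 1.60% of all genes tested. The median log2 fold change was 0.02 over the 50 genes and 0.00 over all 12363 genes tested, with 28 of the 50 above 0 and 22 below. Both *Rax* iCKO libraries lay above both controls for 9 of the 50 and below them for 5, counts near the 15.4% and 14.1% of all genes tested that did so.

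Among 16 other FGF ligands, 7 were listed at 0 in all 4 libraries (*Fgf3*, *Fgf4*, *Fgf6*, *Fgf16*, *Fgf17*, *Fgf20* and *Fgf21*) and 3 were tested. *Fgf11*, an intracellular member like *Fgf12* and *Fgf13*, was at 13.0 and 9.82 FPKM in control libraries, against 19.1 and 14.8 FPKM in *Rax* iCKO libraries (log2 fold change 0.53, SE 0.26). *Fgf22*, a ligand of the synapse-organizing group, was at 3.28 and 3.75 against 2.58 and 2.24 FPKM (log2 fold change -0.40, SE 0.27). *Fgf18*, a ligand of *Fgfr3* in cartilage, was at 0.763 and 1.85 against 1.74 and 3.13 FPKM, with overlapping groups (log2 fold change 0.59, SE 0.38).

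Of 18 genes for co-receptors and matrix partners of FGFs 14 were tested, with a median log2 fold change of 0.00. *Flrt3*, which encodes a transmembrane protein that binds FGF receptors, was the gene past an unadjusted p of 0.05. It was at 13.3 and 15.7 FPKM in control libraries, against 26.6 and 23.6 FPKM in *Rax* iCKO libraries, so that the groups were apart (log2 fold change 0.75, SE 0.22, unadjusted p = 0.0131, adjusted p = 1.0, limma). *Kl*, the Klotho co-receptor of endocrine FGFs, named after its values were seen, was at 2.03 and 1.36 against 2.71 and 4.04 FPKM (log2 fold change 0.69, SE 0.31, adjusted p = 1.0, limma). The heparan sulphate proteoglycans *Gpc3*, *Gpc4* and *Sdc2* were the most abundant of this list, and their log2 fold changes were -0.13, -0.23 and -0.09.

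All 20 genes of the signal relay were tested, with a median log2 fold change of 0.04. *Araf*, a RAF kinase gene, was at 127 and 128 FPKM in control libraries, against 166 and 170 FPKM in *Rax* iCKO libraries, apart but not past the test (log2 fold change 0.39, SE 0.21, adjusted p = 1.0, limma). *Map2k1*, which encodes the kinase MEK1, was at 58.6 and 54.2 against 63.4 and 60.7 FPKM (log2 fold change 0.14).

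Feedback inhibitors and target genes respond to FGF signalling in many tissues, and 11 of 14 were tested. Their median log2 fold change was -0.24, with 4 above 0 and 7 below. *Dusp6*, a phosphatase that dampens the relay, was at 80.8 and 60.2 FPKM in control libraries, against 45.3 and 52.9 FPKM in *Rax* iCKO libraries, lower in both (log2 fold change -0.50, SE 0.24, adjusted p = 1.0, limma). *Dusp5*, a phosphatase gene of the same family named after its values were seen, was at 14.8 and 19.3 against 22.8 and 25.3 FPKM, higher in both (log2 fold change 0.48, SE 0.23, adjusted p = 1.0, limma). *Etv5*, an ETS transcription factor downstream of FGF signalling, was at 90.1 and 56.8 against 57.8 and 54.3 FPKM, with overlapping groups (log2 fold change -0.35, SE 0.27). *Spry2*, a Sprouty inhibitor, was at 67.2 and 21.5 against 46.7 and 21.6 FPKM (log2 fold change -0.26, SE 0.59).

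Many pathway genes were ordered by mouse number. Both mice 7983 and 7984 lay above both mice 3911 and 3914 for 25 of the 50 tested genes and below them for 3, among them 8 of 14 co-receptor and matrix genes and 10 of 20 relay genes above. Among the feedback and target genes they lay above for 7 of 11 (*Spry1*, *Spry2*, *Spry4*, *Spred1*, *Spred3*, *Etv1* and *Etv5*), and below for none. Over all genes tested the same ordering was found for 26.8% upward and 29.1% downward. *Spry1* was at 29.3 and 21.8 FPKM in mice 7984 and 7983 and at 5.63 and 2.84 in mice 3911 and 3914. *Spred1* was at 30.8 and 25.9 against 6.80 and 5.57 FPKM in the same order, and the receptor-like gene *Fgfrl1* at 23.9 and 15.6 against 5.09 and 9.05 FPKM. These 3 genes were named after their values were seen. Of the members, *Fgfr1*, *Fgfr2*, *Fgf2* and *Fgf13* had this ordering and *Fgfr4* the opposite one. Each of these runs of mouse numbers holds 1 mouse of each genotype, and the labels do not say what the numbers share. Summed bipolar cell markers were lower in mice 7984 and 7983 (5223 and 7114 FPKM) than in mice 3911 and 3914 (11830 and 9921 FPKM), and endothelial and pericyte markers were higher (517 and 431 against 255 and 270 FPKM). *Kdr* made up most of the latter sums, and the 9 other markers, *Flt1* and *Pdgfrb* foremost, summed to 53.2 and 45.4 against 26.5 and 29.0 FPKM. Of these *Flt1*, *Pdgfrb*, *Rgs5* and *Kcnj8* followed the ordering, whereas *Pecam1*, *Cldn5*, *Cdh5*, *Tek* and *Acta2* overlapped. *Cldn5* was at 0.711 and 0.262 against 1.77 and 0.530 FPKM, and *Cdh5* was at most 0.104 FPKM. The part of the bipolar, endothelial and pericyte markers in this ordering was not tested.

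**Figure D4:**
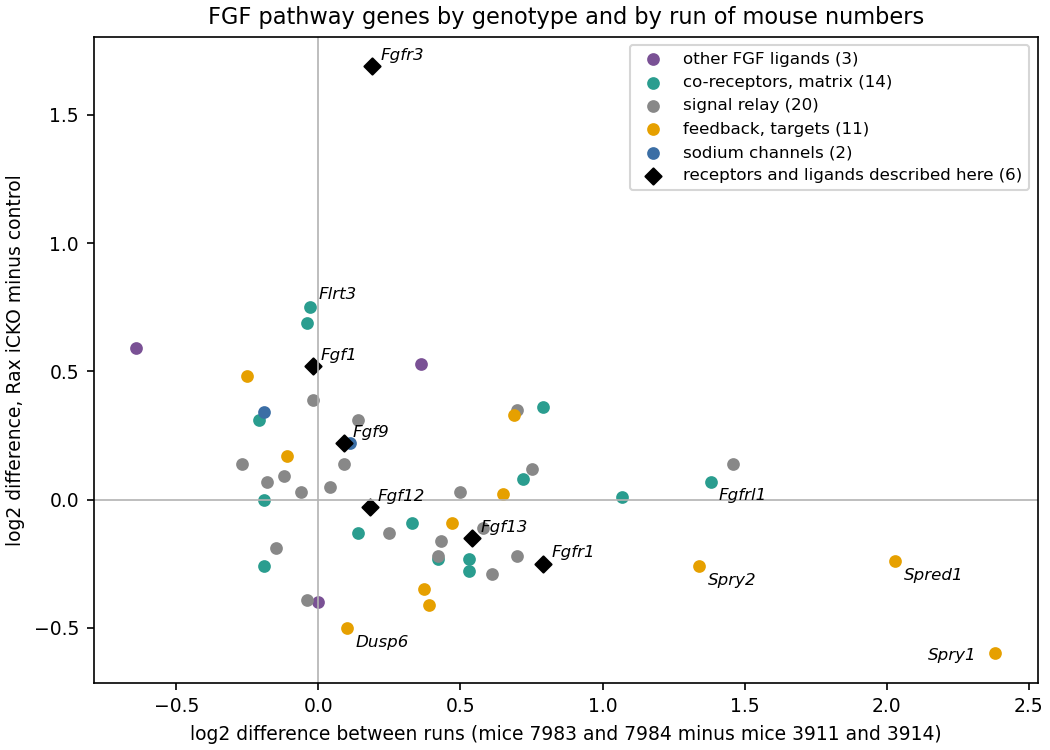
Log2 difference between genotypes (*Rax* iCKO minus control, vertical axis) against the log2 difference between the runs of mouse numbers (mice 7983 and 7984 minus mice 3911 and 3914, horizontal axis) for the 50 tested pathway genes, coloured by list, and the 6 tested members, as black diamonds. *Fgfr3* stands highest on the genotype axis, and *Spry1* and *Spred1* lie farthest to the right on the run axis.

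The sodium channels that *Fgf12* and *Fgf13* proteins bind were low. Of 13 subunit genes 2 passed the filter, *Scn8a* at 1.97 and 1.66 FPKM in control and 2.33 and 2.19 in *Rax* iCKO libraries (log2 fold change 0.22) and *Scn3a* at 0.771 and 1.29 against 1.54 and 1.57 FPKM (log2 fold change 0.34). Both were higher in both *Rax* iCKO libraries, as were 15.4% of all genes tested, and neither passed the test (adjusted p = 1.0 each, limma). The beta subunit gene *Scn2b* came next, at 0.774 and 0.790 against 1.17 and 0.492 FPKM. *Fgf13* at 68.7 to 111 FPKM was thus far above every sodium channel gene listed.

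Markers of other cells that could carry FGF transcripts were set beside *Fgfr3*, which astrocytes express. Of 5 astrocyte markers 2 were lower, 3 overlapped and none was higher in the *Rax* iCKO libraries, with sums of 57.1 and 48.5 against 33.1 and 33.1 FPKM. *Aldh1l1* made up most of these sums, at 44.15 and 30.5 against 22.4 and 20.9 FPKM. *Pax2*, which defines retinal astrocytes, was at 0, 0.0381, 0 and 0 FPKM in mice 7984, 3911, 7983 and 3914. Pigment epithelial markers summed to 8.27 and 9.61 FPKM in control and 11.9 and 12.5 in *Rax* iCKO libraries, with 2 of 10 higher and 1 lower in both *Rax* iCKO libraries (13.7% and 14.5% of all genes) and *Mlana* at 0 in all 4. The higher ones were the pigment genes *Tyr*, at 0.480 and 0.555 against 0.988 and 1.001 FPKM, and *Tyrp1*, at 0.155 and 0.0849 against 0.418 and 0.339 FPKM. The lower one was *Best1*, at 0.334 and 0.859 against 0.113 and 0.285 FPKM, and *Rpe65*, *Rgr*, *Rdh5*, *Lrat* and *Pmel* overlapped. *Ttr*, the highest of these markers in mice 3911 and 3914, also overlapped, at 1.001 and 4.118 against 2.492 and 7.365 FPKM. The Cre line is active in pigment epithelial cells. Of the 10 bipolar markers 5 were higher and none lower in both *Rax* iCKO libraries, against 13.7% and 14.5% of all genes. Their log2 fold changes ran from -0.01 for *Pcp2*, a Purkinje and bipolar cell gene, to 0.67 for *Trpm1*, the channel of ON bipolar cells. Their part in the *Fgfr3* difference was not tested.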

How the data were processed

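Total RNA of mTFP-positive cells was made into full-length cDNA libraries (SMART-Seq HT and Nextera XT, per the labels) and sequenced as single-end reads. Per the submitters' processing notes, reads were mapped to mm10 with TopHat2 2.1.1, Bowtie2 2.2.8 and SAMtools 0.1.18, and the authors deposited 1 FPKM value per gene and library from Cuffdiff 2.2.1. The methods of the paper give TRIzol LS as the RNA reagent, where the labels give a column kit, and other tool versions than these notes. The annotation and strand setting are not given in the sources used here. Antisense overlaps and close paralogs can therefore share reads. As FPKM are relative to a library's total, large changes in abundant genes move the rest.

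FPKM were used as deposited. Depth and reads were recovered from the steps of low values, in which 1 read is worth a fixed amount for a gene of given length, within 0.03 reads, using 463 genes with 1 transcript of at least 600 bases, 200 bases taken off and values under 0.5 FPKM. Between quartiles of 8627610 and 9443359 reads for mouse 7983, the estimate is rough. For genes without a whole-read step, reads were estimated from the longest transcript. Intervals (95%, exact) and limits of 3 reads cover counting error only.

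Groups came from the sample labels. limma 3.58.1 in R 4.3.3 (lmFit, eBayes with a trend) was fitted to log2(FPKM + 1) over the genes whose mean FPKM reached 1, adjusted by Benjamini-Hochberg. The code was tried on simulated data with independent libraries and large changes in well expressed genes. That trial does not cover libraries that vary together or changes in low genes. With 2 against 2 mice an exact permutation test cannot go below p = 0.333, so none was run. For members below the filter, differences came from the fit without it. The members, lists and tests were chosen with earlier results of these data known. Named were all members, *Rax*, sex-linked genes, per list each gene with an unadjusted p under 0.05 and groups apart and the 3 most abundant, and the 5 nearest to *Fgfr3*; others are marked as named after their values were seen, and marker genes stand only beside a member. The alternatives tried were no trend, equal medians, quantile normalization, pseudocount 0.1, a filter at mean FPKM 5 or none, each mouse left out in turn, and a block by run of mouse numbers. Promoters and positions are from RefSeq GRCm38.p6, and exons and transcript lengths from GENCODE. *Fgfr1*, *Fgf1* and *Fgf15* had no promoter entry. Values of 2 of the genes named by this rule or listed as markers are not reported here.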

Additional observations from a re-analysis of the deposited data

How the results depend on the processing

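Of 12363 genes, limma called 3 at an adjusted p under 0.05, with 354 at an unadjusted p under 0.05. The count was 0 without the filter (624 unadjusted), 0 with a mean FPKM of at least 5 (279 unadjusted), 6 with equal medians and 15 to 20 with 1 mouse left out, where the lone library is assumed to vary like the other group. With a replicate block by run of mouse numbers it was 71, and *Fgfr3*, which is not among the 3, was 1 of them. *Fgfr3* was chosen on this contrast and passed the filter only through the *Rax* iCKO libraries, so nothing is read from that call. Deviations from the group means correlated at 0.503 within runs, but with 2 pairs and labels that do not state what a run shares, the numbers are not taken as pairs. Pathway genes called stayed at 0 in each alternative run. The *Fgfr3* difference was 4.06 with pseudocount 0.1, which weighs low values more. With the same pseudocount *Fgf15* was at -3.33 and *Fgf1* at 0.85. The block, the trend and the filter cannot move a fold change in this balanced design. With 1 mouse left out the sign turned for 6 of the 10 members (*Fgfr1*, *Fgfr2*, *Fgfr4*, *Fgf2*, *Fgf12* and *Fgf13*), and for *Fgfr3*, *Fgf1*, *Fgf9* and *Fgf15* it did not. Members below the filter were refitted without it under each alternative. Genes below 1 FPKM rest on few reads.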
